A study of Mus musculus with 3 samples.

Results

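The replication-dependent histone cluster genes encode the histones that package new DNA, and their older symbols begin with Hist1h, Hist2h, Hist3h or Hist4h. Members were every gene with such a name in the RefSeq table of mouse genes, current symbols such as H2bc4 included, and were found on the arrays through the RefSeq accession of each probe. Of 70 members, 47 had a probe and 51 probes of 39404 belonged to them. The 47 comprised 6 H1, 14 H2A, 11 H2B, 8 H3 and 8 H4 genes, and 4 of them had 2 probes. A probe was well above background on at least 1 array for 44 members and on all 3 arrays for 42. The whole series had probes for 32524 genes or unnamed accessions.

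Expression was measured in primary fibroblasts of mouse embryos (embryonic day 10.0, strain C57BL/6J) with genotype Rb-/-;ATM-/-. By the labels, the cells of all 3 groups came from embryos lacking Rb, the retinoblastoma protein that restrains E2F factors, and ATM, the kinase that signals DNA breaks. The first group carried an empty vector, the second a vector expressing DNMT1 shRNA (genotype label Rb-/-;ATM-/-;DNMT1-depleted) and the third a vector expressing ATM (label Rb-/-;ATM-/-;ATM-reconstituted). After 3 days in puromycin (4 ug/ml) and a further 4 days of growth, 1 total RNA sample per group was hybridised to 1 array. With 1 array a group there is no replicate check, no p-value is given, and precision is limited by how few arrays there are.

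Technical error was judged in 2 ways. Among genes with several probes, the pooled SD between probes of the same gene was 0.21 in the comparison of the Dnmt1 shRNA array and 0.33 in that of the array labelled ATM vector. The scanner software's own error was 10 to 21.4% of the signal over member probes well above background. Neither covers variation between cultures. Differences shared by all probes of an array do not enter the SD between probes, and differences in the RNA each probe detects can enter it. The empty-vector and Dnmt1 shRNA arrays shared slide 1 and scan 1, whereas slide 2 and scan 2 held just the ATM vector array, so that slide, scan and group cannot be told apart in the ATM vector comparison. Probes well above background made up 55 to 59.6% of each array, and no spot was saturated. The Dnmt1 probe had a log2 ratio of -2.19 on the Dnmt1 shRNA array. The one Atm probe above background had a log2 ratio of 0.06 on the array labelled ATM vector, with signals of 430, 366 and 409 on the empty-vector, Dnmt1 shRNA and ATM vector arrays. The Rb1 probe was well above background on all 3 arrays too, with signals of 541, 782 and 460 and log2 ratios of 0.70 and -0.10. The sources used here do not place either probe relative to its deletion, so these signals are no check of the genotype labels. Of 12 fibroblast markers 11, 12 and 12 were well above background on the empty-vector, Dnmt1 shRNA and ATM vector arrays, with summed signals of 1070493, 982153 and 1300222. Among 6 epithelial markers Epcam and Cldn4 were not above background on any array, while Krt8 and Krt18 were above it on the Dnmt1 shRNA array alone. Cdh1 and Krt19 were above it on all 3, Krt19 with signals of 5351, 4094 and 899, and the summed signals were 5474, 6296 and 1069. Summed signals were 4624, 3820 and 6366 for 4 endothelial markers. Of these, Kdr and Pecam1 were above background on all 3 arrays and Cdh5 and Tek on none. They were 2634, 5470 and 2073 for the 4 listed blood markers. Csf1r was above background on all 3 arrays, with log2 ratios of 1.03 (Dnmt1 shRNA) and -0.36 (ATM vector), and Ptprc on the empty-vector array alone. Cd68 had no probe and added no signal, and Adgre1 was above background nowhere. The part of other cells in the histone values was not tested.

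Histones H2A, H2B, H3 and H4 form the protein core around which DNA is wound, and the linker histone H1 binds where DNA enters and leaves that core. Their genes lie in clusters, are transcribed chiefly in S phase under the coactivator NPAT, and give mRNAs that end in a conserved stem-loop bound by SLBP in place of a poly(A) tail. Some members also give polyadenylated mRNA, which persists in cells that have left the cycle. The labelling kit named in the sample labels primes from poly(A) tails, so the share of stem-loop mRNA in these signals was not tested. Several members encode the same protein and differ little in sequence, and probe sequences were not used here, so a probe's signal can include RNA of its near-identical neighbours.

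Sequences upstream of 5 members are shown because these genes carry the main contrasts below. H1f2 was far lower and H1f1 far higher on the array labelled ATM vector, H2bc8 shares its upstream region with H2ac8, which was lower alongside it, H2ac18 had opposite signs in the comparisons, and H4c4 stands for the H4 genes that differed little. They are taken from RefSeq (GRCm38.p6, plus strand). The windows end at the base before the annotated start and lie at chr13:23738557-23738806 for H1f2, chr13:23763418-23763667 for H1f1, chr3:96245247-96245496 for H2ac18 and chr13:23581318-23581567 for H4c4. For H2bc8 the 179 bases between its start and that of H2ac8, on the opposite strand, are given (chr13:23571221-23571399). Capitals mark matches, on either strand and with overlaps allowed, to the CCAAT box, the TATA box letters TATAAA, an octamer spelled ATTTGCAT, a form of the E2F site spelled TTTNNCGC or an H1 box spelled AAACACAA.
H1f2: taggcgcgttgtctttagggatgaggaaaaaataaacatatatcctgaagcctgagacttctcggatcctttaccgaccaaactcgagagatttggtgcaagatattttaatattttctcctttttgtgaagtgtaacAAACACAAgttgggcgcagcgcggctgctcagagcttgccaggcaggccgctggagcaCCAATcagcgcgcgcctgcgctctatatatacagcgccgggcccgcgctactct
H1f1: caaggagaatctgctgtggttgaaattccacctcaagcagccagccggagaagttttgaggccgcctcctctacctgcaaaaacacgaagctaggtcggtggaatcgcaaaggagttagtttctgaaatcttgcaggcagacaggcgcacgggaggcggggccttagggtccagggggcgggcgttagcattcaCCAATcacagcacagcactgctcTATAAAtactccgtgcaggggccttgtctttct
H2bc8: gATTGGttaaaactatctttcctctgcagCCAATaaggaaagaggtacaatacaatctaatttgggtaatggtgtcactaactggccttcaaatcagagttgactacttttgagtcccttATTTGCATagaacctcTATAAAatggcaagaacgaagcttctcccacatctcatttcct
H2ac18: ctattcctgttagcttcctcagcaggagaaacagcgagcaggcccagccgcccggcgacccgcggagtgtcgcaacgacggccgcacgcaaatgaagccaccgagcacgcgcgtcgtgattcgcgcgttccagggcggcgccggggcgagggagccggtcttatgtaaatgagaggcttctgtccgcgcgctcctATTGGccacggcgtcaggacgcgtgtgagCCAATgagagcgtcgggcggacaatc
H4c4: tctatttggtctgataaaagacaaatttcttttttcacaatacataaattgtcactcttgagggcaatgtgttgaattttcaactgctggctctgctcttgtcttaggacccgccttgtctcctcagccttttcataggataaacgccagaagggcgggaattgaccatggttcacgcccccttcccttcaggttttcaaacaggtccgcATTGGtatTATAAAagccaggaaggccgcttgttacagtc

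The upstream windows differed in these letters by histone class. A promoter entry was matched for 62 of 70 members, and entries for H2bc4, H2bc21, H3c1, H3c7, H4c14, H2ac14, H2af-ps2 and H2bu1-ps were not matched. CCAAT, the letters read by NF-Y, was present in the 250 bases of 51 members (82.3%), against 33.8% of the 32851 promoters in the table. It stood in all 6 H1, 18 H2A and 16 H2B windows but in 3 of 12 H4 windows. The octamer, read by the OCT1 protein at H2B genes, was found in 6 of 16 H2B windows and 7 of 18 H2A windows, and in 1.6% of all promoters. The H1 box was in 4 of 6 H1 windows, H1f2 included and H1f1 not, and in 1.67% of all promoters. TATAAA was in 29 of 62 members (46.8%, against 12.4%) and TTTNNCGC in 14 (22.6%, against 4.28%). A match is a description of letters, and neighbouring H2A and H2B genes share much of their windows.

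Relative to the empty vector, the Dnmt1 shRNA array (Dnmt1 depletion) showed small differences in histone genes. The median log2 ratio of the 44 members was -0.15, against -0.02 over all 19359 genes. Below 0 stood 29 of 44 members and 52% of all genes, and above 0 stood 15 members and 48% of all genes. One member, H2ac18, was at least 2-fold higher and 0 were at least 2-fold lower, where 7.68% of all genes were at least 2-fold higher and 2.23% at least 2-fold lower. No member was dim on 1 of these 2 arrays alone, so bounds left these counts as they were, where bounds gave 4.79% higher and 1.81% lower over all genes. The median absolute log2 ratio was 0.23 for members and 0.22 for all genes. Of the 44, 19 lay within the SD between probes of 0.21, 17 lay below it and 8 above. Of all 19359 genes, 9460 lay within it, 4536 below and 5363 above.

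Set against the empty-vector array, the array labelled ATM vector showed members far apart from each other in both directions. The median log2 ratio of 44 members was 0.24, against 0.05 over all 18463 genes. It was -0.03 after quantile normalization and 0.04 with 7 H2A genes of alike probes counted once, so the median has no settled direction. With the main scaling 26 of 44 members stood above 0 and 18 below, against 54% and 46% of all genes. At least 2-fold lower were 7 members (15.9%), namely H1f2, H2bc4, H3c15, H2bc8, H2ac8, H2ac18 and H2bc22, where 7.96% of all genes were. At least 2-fold higher were H1f1 and H2bc21 (4.55% of members), where 8.45% of all genes were. H2bc22 was dim on the array labelled ATM vector and was at least 1.9-fold lower by its bound (log2 ratio -0.42 with normexp background correction, smaller than that bound), so 6 members passed with bounds, where 6.36% of all genes did. With bounds 2 members and 6.95% of all genes were at least 2-fold higher. The median absolute log2 ratio was 0.54 for members and 0.37 for all genes. Within the SD between probes of 0.33 lay 11 of 44 members and 8373 of all 18463 genes. The comparisons share the empty-vector array, so values from them are set side by side and their likeness is not a result.

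**Figure D1:**
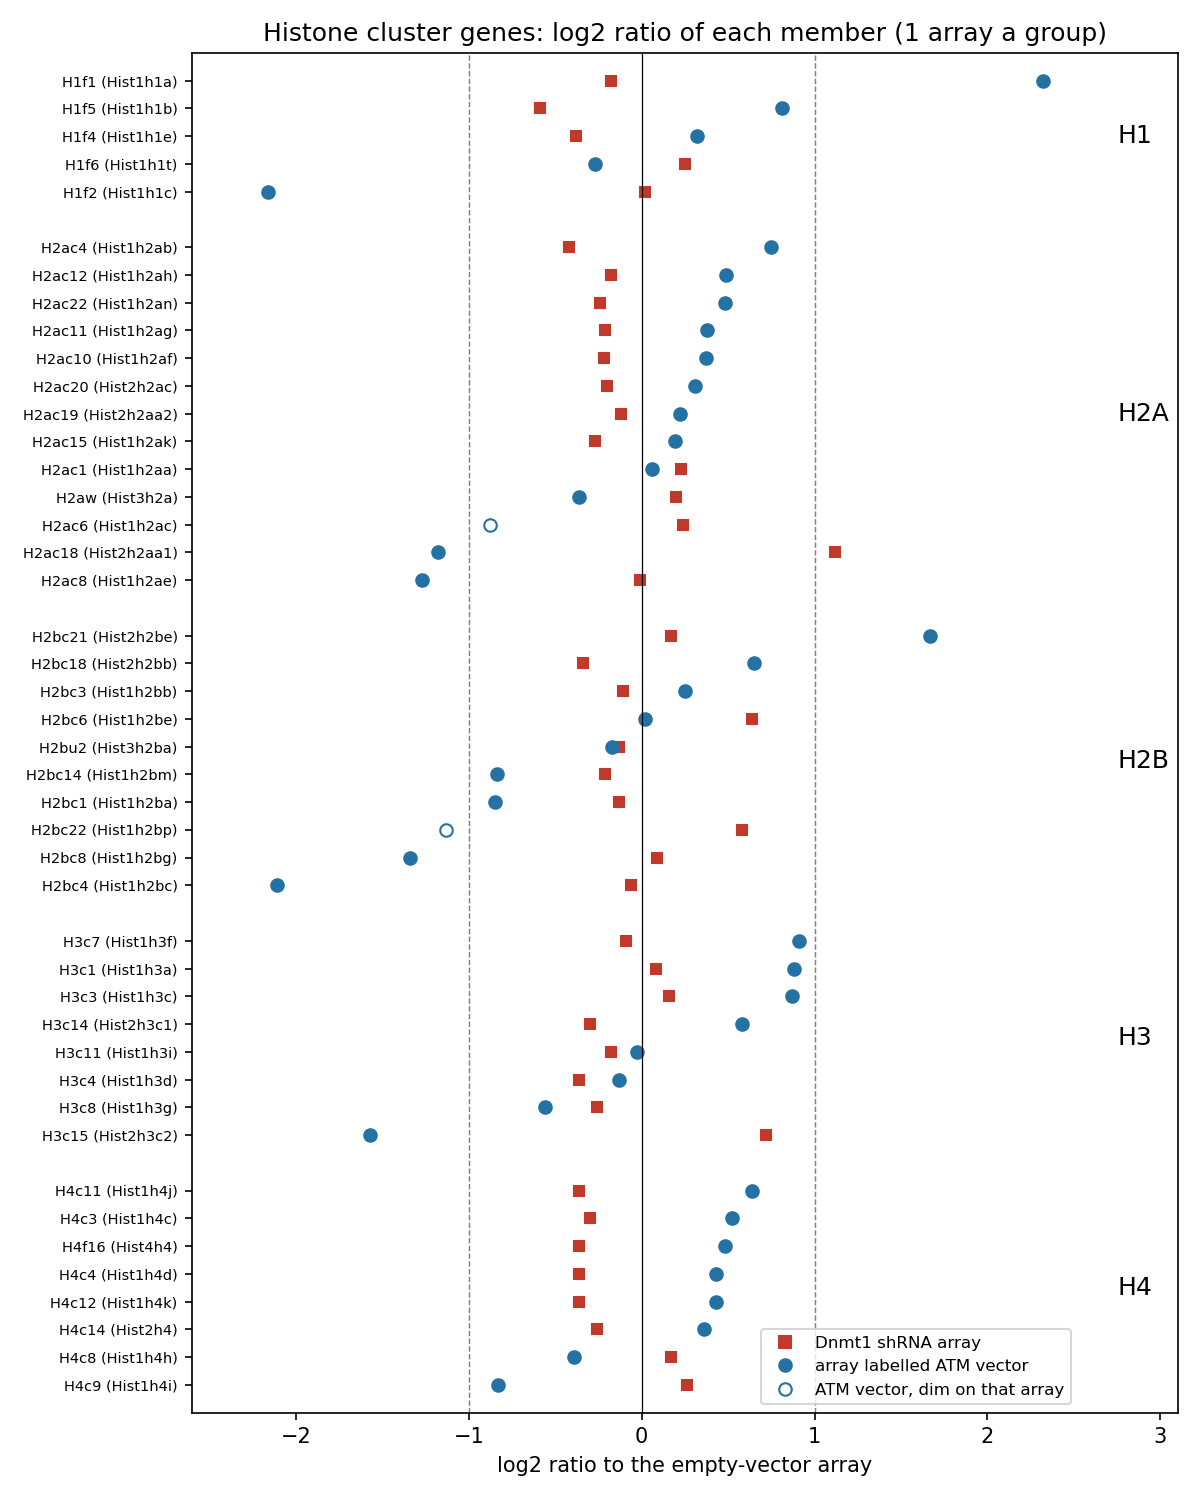
Log2 ratio of each of the 44 measured members to the empty-vector array (x axis), for the Dnmt1 shRNA array (red squares) and the array labelled ATM vector (blue circles, open where the member was dim on that array), grouped by histone class, with dashed lines at 2-fold. Red squares lie between -0.59 and 1.12, while blue circles spread from -2.16 (H1f2) to 2.32 (H1f1).

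The H1 genes encode the linker histone subtypes, and they showed the widest spread on the array labelled ATM vector, from -2.16 to 2.32 over 5 measured genes (SD between members 1.63). H1f2 (Hist1h1c), a somatic subtype known also for polyadenylated mRNA, gave 13227 signal units with the empty vector, 11929 with Dnmt1 shRNA and 2683 with the ATM vector. Its value was low on the last array alone, 4.48-fold below the empty-vector array, and its log2 ratio on the Dnmt1 shRNA array was 0.02. H1f1 (Hist1h1a), another somatic subtype, had signals of 650, 513 and 2954 in the same order. It was high on the array labelled ATM vector alone, with log2 ratios of -0.18 with Dnmt1 shRNA and 2.32 with the ATM vector. H1f5 (Hist1h1b), a subtype of dividing cells, had signals of 25690, 15182 and 40835, with log2 ratios of -0.59 and 0.81. Its value on the Dnmt1 shRNA array was the lowest log2 ratio of any member there. H1f4 (Hist1h1e) had signals of 10157, 6962 and 11541, with log2 ratios of -0.38 and 0.32, the second within the SD between probes. The testis subtype H1f6 (Hist1h1t) was near background, with signals of 47.8, 50.7 and 36.1 and log2 ratios of 0.25 and -0.27. H1f3 (Hist1h1d) was dim (not well above background) on all 3 arrays. Over the 5 measured H1 genes the median was -0.18 and 0.32 on the Dnmt1 shRNA and ATM vector arrays.

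H2A genes fell into a group of alike probes and a group that differed among themselves. Probes of 7 genes (H2ac10, H2ac11, H2ac12, H2ac15, H2ac19, H2ac20 and H2ac22), grouped after their values were seen, had signals of 247653 to 287400 with the empty vector, 187022 to 225571 with Dnmt1 shRNA and 275543 to 365884 with the ATM vector. Their log2 ratios were -0.24 to -0.12 and 0.22 to 0.49, and whether these are 7 separate measurements was not tested. After quantile normalization the ATM vector values of H2ac10, H2ac11, H2ac15, H2ac19 and H2ac20 were -0.04, -0.02, -0.05, -0.17 and -0.09, and those of H2ac12 and H2ac22 were 0.04 and 0.08. A further H2ac15 probe outside this group had signals of 50925, 34894 and 46452 and log2 ratios of -0.38 and 0.01, giving H2ac15 means of -0.27 and 0.19. The class median was -0.18 with Dnmt1 shRNA and 0.22 with the ATM vector. With the 7 genes counted once it was 0.20 and -0.36, so the class has no settled direction.

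H2ac18 (Hist2h2aa1), an H2A gene of the Hist2 cluster, gave signals of 3747, 7239 and 1503 with empty vector, Dnmt1 shRNA and ATM vector in turn. It was highest on the Dnmt1 shRNA array (2.17-fold higher, log2 ratio 1.12) and lowest on the array labelled ATM vector (2.26-fold lower). With the array medians as the scale its Dnmt1 shRNA value was 0.88, below 2-fold. H2ac8 (Hist1h2ae) had signals of 377, 334 and 141 and was 2.42-fold lower on the array labelled ATM vector. H2ac6 (Hist1h2ac) had signals of 50.1 and 52.8 on the first 2 arrays and was not well above background on the array labelled ATM vector, where it was at least 1.39-fold lower by its bound. With normexp its log2 ratio was -0.20, smaller than that bound. H2ac4 (Hist1h2ab) went the other way, with signals of 45537, 30419 and 69835 and log2 ratios of -0.42 and 0.75. H2aw (Hist3h2a), of the Hist3 cluster, had signals of 7078, 7270 and 5006 (log2 ratios 0.20 and -0.36). The testis gene H2ac1 (Hist1h2aa) had signals of 393, 411 and 373, alike on the 3 arrays. H2ac21 was dim (not well above background) on all 3 arrays.

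H2B genes had the lowest class median on the array labelled ATM vector, -0.51 over 10 genes, against -0.08 on the Dnmt1 shRNA array. The median was -0.17 over the 9 genes well above background on all 3 arrays. H2bc4 (Hist1h2bc), for which polyadenylated mRNA is also known, gave signals of 24716, 21202 and 5206 with empty vector, Dnmt1 shRNA and ATM vector in turn. It was low on the last array alone, 4.31-fold below the empty-vector array, with a log2 ratio of -0.06 on the Dnmt1 shRNA array. H2bc8 (Hist1h2bg) had signals of 261, 247 and 93.7 and was 2.53-fold lower on the array labelled ATM vector. With normexp background correction its log2 ratio there was -0.82, below 2-fold. H2bc21 (Hist2h2be) had signals of 175, 175 and 503 and was 3.17-fold higher on the array labelled ATM vector, alone among H2B genes in passing 2-fold upwards. H2bc14 (Hist1h2bm) had signals of 11031, 8495 and 5609 (log2 ratios -0.21 and -0.84). The testis gene H2bc1 (Hist1h2ba) had signals of 8249, 6710 and 4165 (log2 ratios -0.13 and -0.85). Both were lowest on the array labelled ATM vector, where H2bc18 (Hist2h2bb) was highest, with signals of 1890, 1332 and 2690 (log2 ratios -0.34 and 0.65). H2bc6 (Hist1h2be) at 0.64 and H2bc22 (Hist1h2bp) at 0.58 had the highest H2B log2 ratios on the Dnmt1 shRNA array. Signals of H2bc6 were 149, 207 and 138 (log2 ratios 0.64 and 0.02) and those of H2bc22 68.2, 91.1 and 28.4, the last dim. H2bc3 (Hist1h2bb) was near background at 60.8, 50.4 and 65.9 (log2 ratios -0.11 and 0.25), and H2bu2 (Hist3h2ba) had signals of 1503, 1226 and 1211 (log2 ratios -0.13 and -0.17). Both stayed within the SD between probes, and H2bc23 was dim (not well above background) on all 3 arrays.

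H3 genes stood on both sides of 0 on the array labelled ATM vector, with 4 of 8 above it, near the 54% of all genes. Their median was 0.27 and their range -1.57 to 0.91. H3c7 (Hist1h3f), H3c1 (Hist1h3a) and H3c3 (Hist1h3c) had log2 ratios of 0.91, 0.88 and 0.87 there. Signals of H3c7 were 427, 359 and 727 (log2 ratios -0.09 and 0.91) on the empty-vector, Dnmt1 shRNA and ATM vector arrays. Those of H3c1 were 277, 260 and 463 (log2 ratios 0.08 and 0.88), and those of H3c3 3658, 3653 and 6073 (log2 ratios 0.16 and 0.87). All 3 were highest on the array labelled ATM vector. H3c15 (Hist2h3c2), of the Hist2 cluster, had signals of 634, 932 and 193. It was highest on the Dnmt1 shRNA array (log2 ratio 0.72) and lowest on the array labelled ATM vector (2.98-fold lower). H3c14 (Hist2h3c1), its copy in the same cluster, went the other way with signals of 3893, 2824 and 5275 (log2 ratios -0.30 and 0.58). H3c4 (Hist1h3d), the H3 probe of highest signal, gave 89233, 62080 and 74302 (log2 ratios -0.36 and -0.13). H3c8 (Hist1h3g) gave 1319, 983 and 811 (log2 ratios -0.26 and -0.56) and H3c11 (Hist1h3i) 563, 443 and 501 (log2 ratios -0.18 and -0.03), with ratios below 0 on both arrays. The H3 median on the Dnmt1 shRNA array was -0.13, with 0 of 8 genes past 2-fold.

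H4 genes, known for encoding the same protein, lay closest together, with an SD between members of 0.26 (Dnmt1 shRNA) and 0.52 (ATM vector). Of 8 genes, 6 stood between 0.36 and 0.64 on the array labelled ATM vector (H4c14, H4c12, H4c4, H4f16, H4c3 and H4c11) and between -0.36 and -0.26 on the Dnmt1 shRNA array. H4c4, H4c11, H4c12 and H4f16 all stood at -0.36 on the Dnmt1 shRNA array. Whether these 6 genes are separate measurements was not tested. H4c4 (Hist1h4d) gave signals of 24581, 17133 and 30017 with empty vector, Dnmt1 shRNA and ATM vector in turn. H4f16 (Hist4h4), the single member of the Hist4 cluster, had signals of 11110, 7721 and 14068 (log2 ratios -0.36 and 0.48). Signals were 1112, 803 and 1445 (log2 ratios -0.30 and 0.52) for H4c3 (Hist1h4c) and 2111, 1470 and 2997 (log2 ratios -0.36 and 0.64) for H4c11 (Hist1h4j). On these 4 genes the Dnmt1 shRNA array was lowest and the array labelled ATM vector highest. The other 2 genes were lower on the array labelled ATM vector, H4c9 (Hist1h4i) at -0.83 and H4c8 (Hist1h4h), with signals of 104, 105 and 72.5, at -0.39, and stood at 0.26 and 0.17 on the Dnmt1 shRNA array. Both H4c9 probes were lower on the array labelled ATM vector, at -1.02 (signals of 1955, 2051 and 878) and -0.64 (3769, 4097 and 2200). The 2 probes of H4c12 (Hist1h4k) gave 0.40 and 0.46 there, with signals of 54679, 38530 and 65551 and of 6388, 4403 and 7966. H4c14 (Hist2h4) had a bright probe with signals of 49358, 34210 and 55221 and another near background. The class median was -0.33 and 0.43, and no H4 gene passed 2-fold in either comparison.

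**Figure D2:**
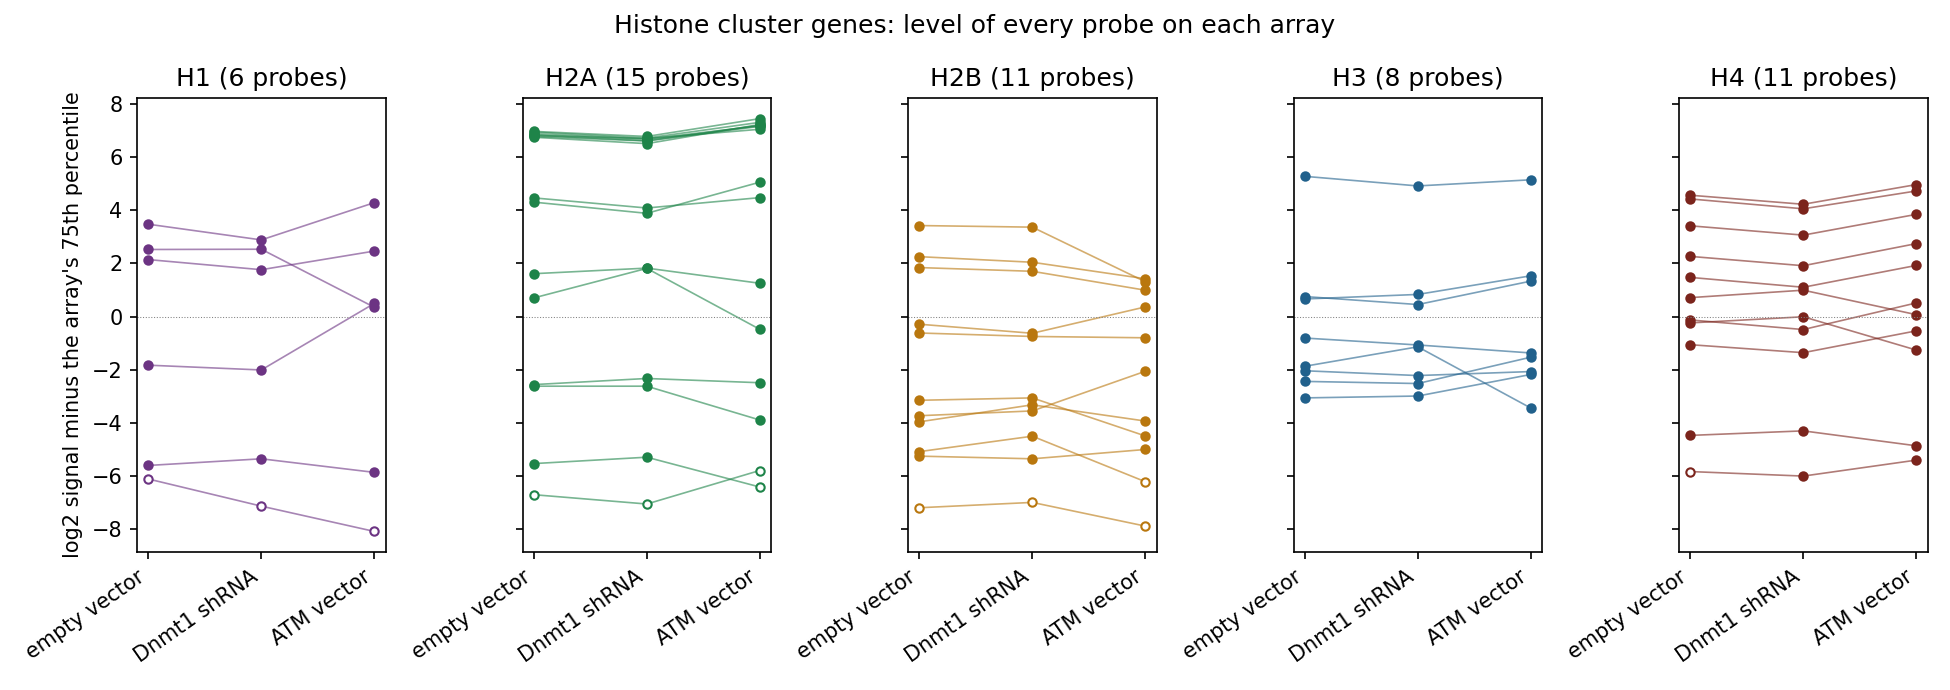
Log2 signal minus the array's 75th percentile (y axis) of each of the 51 member probes on the 3 arrays, one panel for each histone class, with open circles where a probe was not well above background. Lines join the values of one probe: in H4 most lines run together, while in H1 they cross between the Dnmt1 shRNA and ATM vector arrays, where H1f2 is low and H1f1 high.

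Neighbouring members did not always share a direction. In 6 places an H2A gene lies next to an H2B gene and both had values. On the array labelled ATM vector the neighbours H2ac8 and H2bc8, whose shared upstream region is printed above, had log2 ratios of -1.27 and -1.34. H2ac6 and H2bc4 were also both lower, at -0.88 (dim on that array, and -0.20 with normexp) and -2.11. H2ac4 and H2bc3 stood at 0.75 and 0.25, and H2ac20 and H2bc21 at 0.31 and 1.67. Signs differed for H2ac22 and H2bc22, at 0.48 and -1.13 (dim on that array). The testis neighbours H2ac1 and H2bc1 stood at 0.06, within the SD between probes and -0.03 with normexp, and -0.85. In the order of members H1f2 stands between H4c3, at 0.52, and H3c3, at 0.87. The Hist1 cluster on chromosome 13 had a median of 0.19 over 33 genes and the Hist2 cluster on chromosome 3 one of 0.33 over 8. On the Dnmt1 shRNA array these medians were -0.18 and -0.16.

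**Figure D3:**
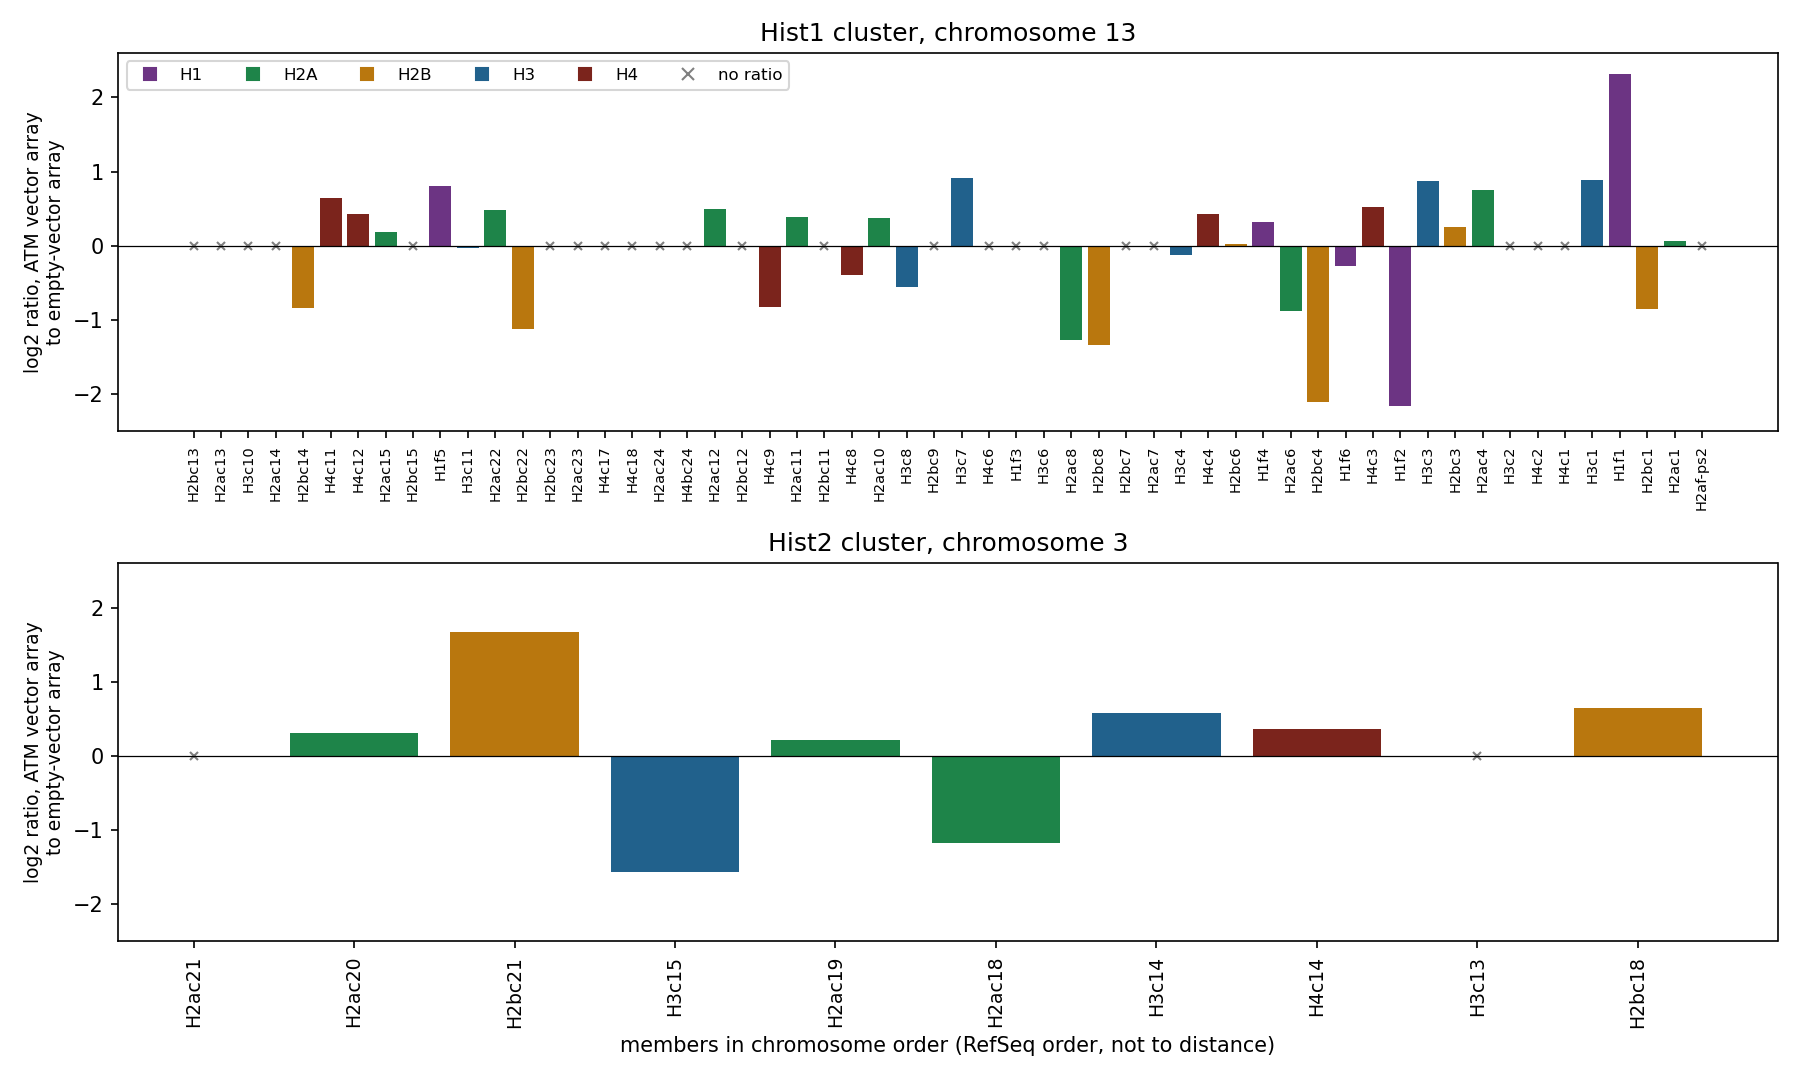
Log2 ratio of the array labelled ATM vector to the empty-vector array (y axis) for members of the Hist1 cluster (top) and the Hist2 cluster (bottom), in chromosome order and coloured by histone class, with crosses for members without a ratio. The low bar of H1f2 (-2.16) stands between H4c3 (0.52) and H3c3 (0.87), while H2ac8 and H2bc8, and H2ac6 and H2bc4, are low side by side.

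Genes that make and handle histone mRNA were taken as a list of 29. On the Dnmt1 shRNA array their median was -0.17 over 28 genes, with 0 past 2-fold, and the most distant was Lsm11, a protein of the U7 particle that cuts histone mRNA, at -0.64. On the array labelled ATM vector the median was -0.04 over 29 genes, with 1 at least 2-fold higher and 2 lower. Over all genes, 8.45% were at least 2-fold higher there and 7.96% lower. Npat, the coactivator of histone gene transcription, was not well above background on the empty-vector and Dnmt1 shRNA arrays (signals of 26.8 and 5.11) and reached a signal of 93.2 with the ATM vector. By its bound its 1 probe was at least 2.71-fold higher, and its log2 ratio was 0.64 with normexp background correction, smaller than that bound. Npat lies next to Atm on chromosome 9, with 0 genes between them, and any bearing of this on its value was not tested. Ctif, a factor of cap-dependent translation that works with the stem-loop, had signals of 9136, 9922 and 3944 and a log2 ratio of -1.07. Zfp473, a zinc finger protein of the U7 processing complex, stood at -1.01 by 2 probes. The one dim on that array gave -1.11 and the other -0.92, below 2-fold. With normexp the log2 ratio of Zfp473 was -0.48. Slbp, which binds the stem-loop, stood at -0.04 and -0.20 on the Dnmt1 shRNA and ATM vector arrays, and Casp8ap2, which organises histone locus bodies, at -0.16 and -0.04.

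Chaperones that carry histones to DNA formed a list of 28, all measured. Their median was -0.22 on the Dnmt1 shRNA array, with 0 past 2-fold, and Nasp, the H1 and H3-H4 carrier, stood lowest at -0.49. Of all genes, 7.68% were at least 2-fold higher on that array and 2.23% lower. On the array labelled ATM vector the median was -0.14. Asf1a, an H3-H4 chaperone, was there 2.06-fold higher, with signals of 240, 184 and 450 on the empty-vector, Dnmt1 shRNA and ATM vector arrays, while Ssrp1 and Supt16, subunits of the FACT complex, stood at -0.73 and -0.66. With normexp no chaperone passed 2-fold. Histone genes without a Hist1h to Hist4h name, listed as replication-independent histones, numbered 17, of which 14 and 13 had values. Their medians were near 0 in both comparisons, with 0 past 2-fold by the mean of a gene's probes. H1f0, a linker histone of resting cells, stood at 0.31 and -0.53, and H3f3a stood at 0.53 on the array labelled ATM vector. H2aj stood at -0.55 there by 2 probes that disagreed, with signals of 266168, 224477 and 318807 for one and 3826, 3848 and 1229 for the other, and H2ax, the variant marked at DNA breaks, at -0.26 in both. S-phase genes, 28 in all, had medians of -0.32 and -0.24, with 0 past 2-fold in either comparison (shares of all genes as given for the chaperones). On the Dnmt1 shRNA array all 28 were below 0, where 52% of all genes were, led by Orc1 at -0.68. Mcm6 and Rrm1 were both at 0.01 there after quantile normalization. On the array labelled ATM vector 22 of 28 were below 0, where 46% of all genes were, led by Gins2 at -0.84. The histone medians were -0.15 and 0.24, the second without a settled direction (above), and the part of S phase in the histone values was not tested.

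**Figure D4:**
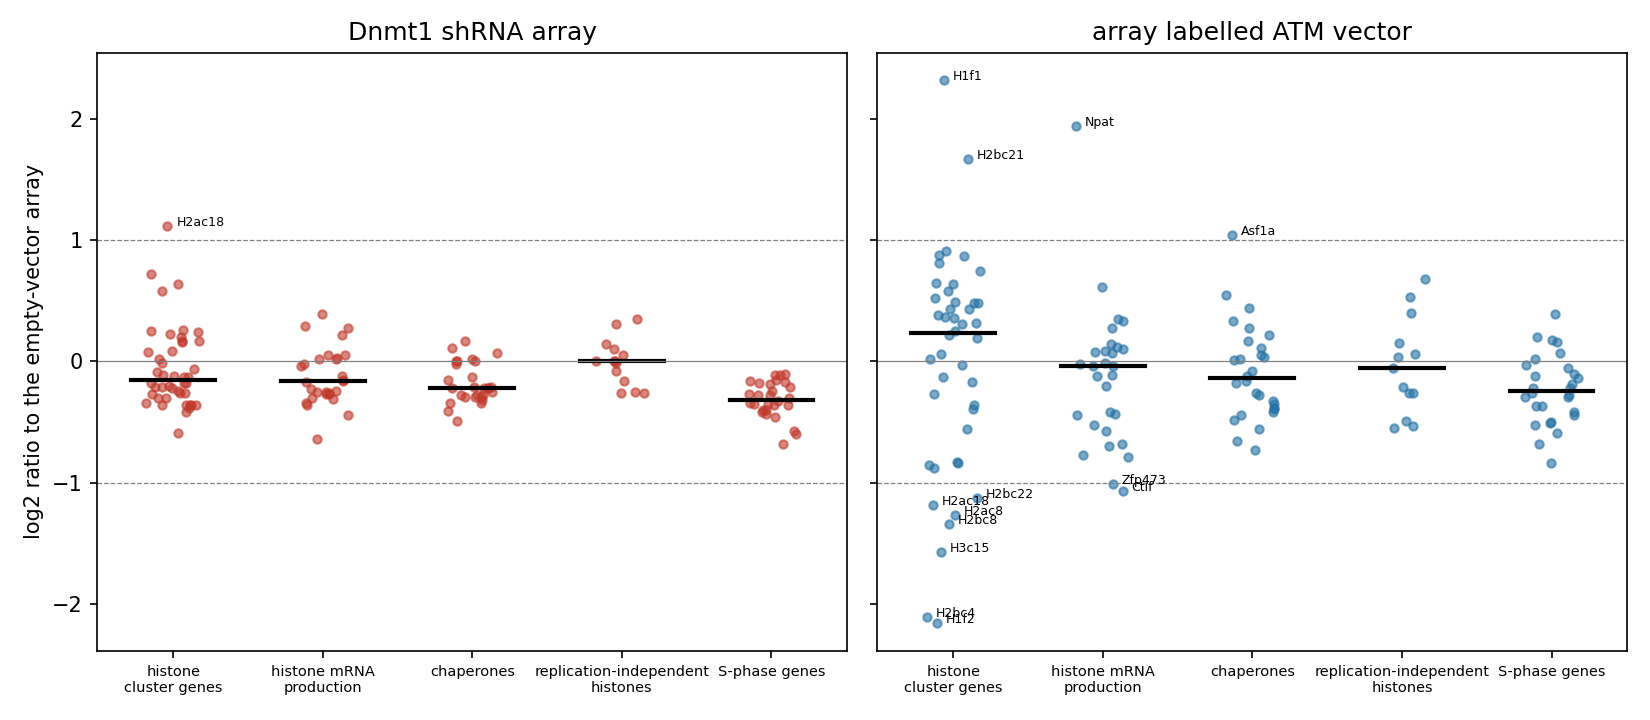
Log2 ratios to the empty-vector array (y axis) of histone cluster genes and of the 4 related lists, for the Dnmt1 shRNA array (left) and the array labelled ATM vector (right), with 1 point per gene, a bar at each median and dashed lines at 2-fold. Histone cluster genes span -2.16 to 2.32 on the right, while S-phase genes there span -0.84 to 0.39.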

How the data were processed

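Total RNA of 3 samples was labelled with Cy3 and measured on 3 Agilent arrays, 1 per group, with groups taken from the transfection label. The authors deposited Agilent Feature Extraction 10.7.3.1 output, per the submitters' processing notes. The deposited processed signal is a linear intensity, background-subtracted and detrended within each array, per the file headers. The deposited flags (well above background, outlier, saturated) are other per-spot marks of 0 or 1, per the file headers. The value table of the series, deposited by the authors, repeats these intensity values to within 0.495% of each spot, with column medians of 75.2, 80.4 and 68.6.

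Control and outlier spots were left out, log2 signals were averaged per probe, and each array's 75th percentile was subtracted. Log2 ratios of a gene's probes well above background on at least 1 of 2 arrays were averaged. A gene dim on 1 array was given a bound, its brighter value against the higher of that array's lowest signal above background (37.8, 25.1 and 32.7 intensity units) and its own. Of 39404 probes, 26397 matched 1 symbol through their accession and a RefSeq table (GRCm38.p6). The arrays were designed on mm9, so coordinates are those of the RefSeq sequences. The ratio step was run on simulated data, a copy of the empty-vector array with 200 genes shifted past 2-fold. Its noise was set near that of repeated spots, and every array was given the same flags. It therefore tests neither the bounds nor variation between arrays. The files used here hold the median rather than the mean spot signal, so normexp (limma 3.58.1, offset 50) used the median. Python 3.11.15, numpy 2.4.6 and pandas 2.3.3 were used. The members, lists and alternatives were chosen with earlier results of these data known. Named were all members above background on all 3 arrays, up to 3 dim members per class, testis members, and the most distant list genes. Of 17 replication-independent histones 1 symbol (H2afb1) matched several genes and was left out.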

Additional observations from a re-analysis of the deposited data

How the results depend on the processing

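Of the medians and counts recomputed under the alternatives, 576 stayed within the SD between probes, or within 1.5 times for a count, and 28 moved. No value past 2-fold changed sign, but some medians did. After quantile normalization the ATM vector medians were -0.03 over all members and -0.05 over H2A genes, and with the probe of highest mean signal that of replication-independent histones was 0.04. Scaling by the array median shifted all genes of the Dnmt1 shRNA comparison by -0.24, and its medians moved with them: H1 -0.41, H2A -0.42, H2B -0.32, H3 -0.37, H4 -0.57, all members -0.39, histone mRNA production -0.40, replication-independent histones -0.24, chaperones -0.46 and S-phase genes -0.55, with 0 members (and 0 H2A genes) at least 2-fold higher. No filter on dim probes shifted all genes there by -0.12 and added H1f3, so that 1 H1 gene (1 of all members) was at least 2-fold lower, as was 1 gene of the mRNA production list. In the ATM vector comparison 2 H1 genes and 1 replication-independent histone were then at least 2-fold lower. Over probes well above background on all 3 arrays the H2B median was -0.17, and the mRNA production list had 0 genes at least 2-fold higher and 1 lower. With normexp that list had 0 higher and 1 lower, 1 H2B gene was lower and 0 chaperones were higher. After quantile normalization, and with the probe of highest mean signal, 1 gene of the mRNA production list was lower. The next 2 alternatives were chosen after seeing the data. With the 7 alike H2A genes counted once the H2A median was 0.20 (Dnmt1 shRNA) and -0.36 (ATM vector), and that of all members 0.04 in the latter. Bounds in place of measured ratios moved no median or count by more than those limits. Outlier spots, the series matrix's values and cyclic loess also did not. H1f2 ranged from -2.20 to -2.15, H2bc4 from -2.16 to -1.99, H1f1 from 2.04 to 2.32, H2bc21 from 1.19 to 1.67, H3c15 from -1.61 to -1.14 and H2ac18 from -1.22 to -1.06 in the ATM vector comparison. The slide could not enter a model as a block, since slide 2 held 1 array. No paired analysis was possible because each group has 1 array and the result comes from no test. Signals near background, such as those of H1f6 and H2ac6, limit what can be said of those genes.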

Other observations

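Copies of one histone gene in the Hist2 cluster gave different values. H3c14 and H3c15 encode the same H3 protein, and the 250 bases upstream of their RefSeq starts share an unbroken run of 231 bases. Their log2 ratios were -0.30 and 0.72 with Dnmt1 shRNA, and 0.58 and -1.57 with the ATM vector. H2ac18 and H2ac19 share a run of 169 upstream bases. Their log2 ratios were 1.12 and -0.12 on the Dnmt1 shRNA array and -1.18 and 0.22 on the array labelled ATM vector, where the H2ac19 probe was one of the 7 alike H2A probes. H3c15 and H2ac18 were both highest on the Dnmt1 shRNA array and lowest on the array labelled ATM vector. That order was not particular to them. Other members had it too, among them H4c9 (0.26 and -0.83) and H2aw (0.20 and -0.36). What the probes of these copies share in sequence was not tested.

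Linker histone genes outside and inside the clusters can be set side by side. H1f10, made outside S phase, had a log2 ratio of -0.21 on the array labelled ATM vector and H1f0 one of -0.53, between H1f2 at -2.16 and H1f1 at 2.32. The 3 testis members had no common direction: H1f6 stood at 0.25 and -0.27, H2ac1 at 0.23 and 0.06 and H2bc1 at -0.13 and -0.85 on the Dnmt1 shRNA and ATM vector arrays. Among 6 germ-cell markers, Ddx4 and Dazl were not above background on any array, Prm1 and Tnp1 were on all 3, and Sycp3, a protein of meiotic chromosomes, was on the Dnmt1 shRNA array alone.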
